A study of Mus musculus with 13 samples.

Results

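The 10 genes described here are markers of the mural cells of blood vessels, chosen by symbol. Pdgfrb, Rgs5, Cspg4, Notch3, Mcam and Itga8 are grouped here as pericyte members. Acta2, Myh11, Tagln and Smtn, which belong to the contractile apparatus of smooth muscle, are the contractile members. All 10 were among the 55536 genes of the deposited count table, and all 10 passed the filter on low counts that left 16125 genes to test. They were measured in ventricular nuclei of C57BL/6J mice, an inbred strain, in a design of vector by sex. Pups were injected once into the peritoneum at postnatal day 1 with adeno-associated virus serotype 6, and the ventricles were taken at postnatal day 56.

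The groups were females given the vector with human PR, the progesterone receptor (AAV_PGR; PGR_F, 3 libraries, numbered 1, 2 and 4), females given the vector lacking an insert (AAV_Con; Con_F, 4 libraries), males given AAV_PGR (PGR_M, 3 libraries) and males given AAV_Con (Con_M, 3 libraries). All animals thus received virus, and no library is from an uninjected animal. Each library pooled 3 to 6 whole ventricles, and its nuclei were sorted for Pcm1, a centriolar protein that sits on the nuclear envelope of cardiomyocytes. The p-values given here thus measure the spread between pools. The labels do not name the promoter of the vector, and the human insert was not analysed here.

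Mural cells wrap the endothelial tubes of the microvessels as pericytes and the walls of arteries and veins as smooth muscle. Endothelial cells recruit them with platelet-derived growth factor B, which acts on the receptor Pdgfrb, and Notch3 signalling keeps vascular smooth muscle differentiated. Serum response factor and its coactivator myocardin drive Acta2, Myh11 and Tagln through the promoter element called the CArG box. A gate on Pcm1 is meant to keep cardiomyocyte nuclei, so mural markers in these libraries are read as a minor signal beside the cardiomyocyte one.

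Total counts were 31.8 to 55.5 M in PGR_F, 37.6 to 58.9 M in Con_F, 45.3 to 57.9 M in PGR_M and 33.3 to 86.3 M in Con_M. The library Con_F 4 stood apart by its Y-chromosome genes, at 1.01% of the male mean, against 0.0112 to 0.112% in the other female libraries. Leaving it out also moved the counts of all genes called. Values without it are given where it moves a count of members, and for the genes called in the vector comparisons. Summed over the 13 cardiomyocyte markers, levels were 82287 to 101831 counts per M (CPM, scaled with TMM factors) over all libraries. The 17 endothelial markers summed to 57.8 to 108 CPM in PGR_F, 84.1 to 103 CPM in Con_F, 47.1 to 88.7 CPM in PGR_M and 41.3 to 80.5 CPM in Con_M. The 14 fibroblast markers summed to 117 to 230 CPM in PGR_F, 163 to 212 CPM in Con_F, 79.6 to 173 CPM in PGR_M and 73.4 to 138 CPM in Con_M. None of the 8 lymphocyte markers passed the filter.

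Across the members, 9 were low and Smtn was high. Smtn, which encodes smoothelin, an actin-associated protein of contractile smooth muscle, lies on chromosome 11 (GRCm38, 3517523 to 3540612, minus strand). It was at 590, 657 and 662 CPM in PGR_F, at 838, 575, 737 and 786 CPM in Con_F, at 757, 662 and 575 CPM in PGR_M, and at 597, 659 and 700 CPM in Con_M. Every group overlapped every other. Smtn made up 91.1 to 95.03% of the summed CPM of the 10 members in a library, so a sum over the list is close to the value of this gene.

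Levels were compared between genes per kb of the deposited gene interval, which holds introns as well as exons. On this scale Smtn was at 29.3 ± 3.63 CPM per kb (SD over 13 libraries), at the 99.6th percentile of the tested genes. This was 53.9-fold above Cspg4, the next member, and the lowest library of Smtn was above the highest of Cspg4. Cspg4, a transmembrane proteoglycan on the pericyte surface, was at 0.544 ± 0.0625 CPM per kb, and Acta2, smooth muscle alpha actin, at 0.298 ± 0.190 CPM per kb. Mcam, an adhesion molecule shared by pericytes and endothelium, followed at 0.224 ± 0.0580 CPM per kb, then Rgs5, an inhibitor of G-protein signalling, at 0.161 ± 0.0312 CPM per kb and Pdgfrb at 0.159 ± 0.0453 CPM per kb. Below these came Tagln, an actin-binding protein of smooth muscle, at 0.131 ± 0.0434 CPM per kb, Notch3 at 0.0885 ± 0.0234 CPM per kb, Myh11, the smooth muscle myosin heavy chain, at 0.0282 ± 0.00884 CPM per kb and Itga8, an integrin subunit, at 0.00879 ± 0.00302 CPM per kb. Only 3 neighbouring pairs in this order had ranges over the 13 libraries that did not meet: Smtn and Cspg4, Notch3 and Myh11, and Myh11 and Itga8. The ranges of the other neighbours met, although Mcam lay above Rgs5 and Tagln above Notch3 in 12 of 13 libraries each, Cspg4 above Acta2 in 11 and Pdgfrb above Tagln in 10. Acta2 lay above Mcam, and Rgs5 above Pdgfrb, in 7 of 13 libraries each, and these 2 pairs did not differ beyond their spread.

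Against the cardiomyocyte markers, Smtn was the member of comparable level. Myh6, the alpha myosin heavy chain of the adult mouse ventricle, was at 455 CPM per kb, 15.5-fold above Smtn, and Tnni3, cardiac troponin I, at 58.1 CPM per kb, 1.98-fold above it. Vwf, an endothelial product, was at 0.0812 CPM per kb, inside the range of the other 9 members, and Gsn, a fibroblast-enriched actin-severing protein, at 0.834 CPM per kb, just above them. Smtn did not stand with the other 9 mural markers, and the cell type its reads came from was not tested.

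**Figure D1:**
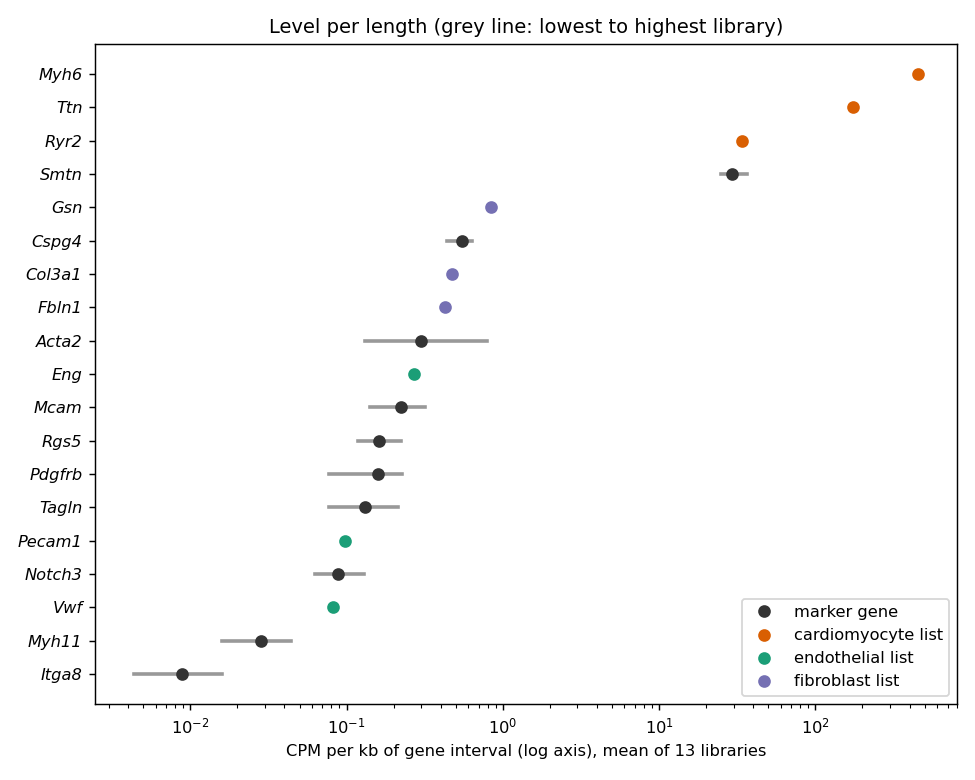
Mean level per kb of gene interval (log axis) of the 10 marker genes, with a grey line from the lowest to the highest of the 13 libraries, and of the 3 genes of highest CPM in each of the cardiomyocyte, endothelial and fibroblast lists. Smtn, at 29.3 CPM per kb, lies next to the cardiomyocyte genes, while Cspg4 at 0.544 and Itga8 at 0.00879 CPM per kb span the other members.

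Smtn and Acta2, both contractile and far apart in level, are also the members whose promoter sequence is shown. The 250 bases before the RefSeq start (GRCm38.p6, minus strand, written 5′ to 3′) are given, with matches in capitals: a CArG box with at most 1 mismatch, or the letters TGGGAA, the core that the Notch effector Rbpj recognises, on either strand.
Acta2, chr19:34255374-34255623: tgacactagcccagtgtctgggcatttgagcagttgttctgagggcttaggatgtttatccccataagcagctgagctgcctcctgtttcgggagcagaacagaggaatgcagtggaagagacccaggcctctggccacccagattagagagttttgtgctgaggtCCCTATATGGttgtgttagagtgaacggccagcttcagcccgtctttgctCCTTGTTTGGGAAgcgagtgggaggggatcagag
Smtn, chr11:3539293-3539542: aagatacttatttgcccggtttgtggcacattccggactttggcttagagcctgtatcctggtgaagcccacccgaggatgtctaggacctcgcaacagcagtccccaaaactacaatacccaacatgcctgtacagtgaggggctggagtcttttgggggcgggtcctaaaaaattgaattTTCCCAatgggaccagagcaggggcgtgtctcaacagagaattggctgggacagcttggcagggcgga
The Acta2 window held 2 CArG boxes with 1 mismatch, CCCTATATGG at 84 bases and CCTTGTTTGG at 34 bases before the start, the second overlapping a TGGGAA at 27 bases. The Smtn window held no CArG match and 1 TGGGAA, read on the other strand, at 68 bases. Of 32851 promoters of this length, 18.6% held a CArG box with at most 1 mismatch, 1.47% an exact one and 21.6% a TGGGAA. These matches describe the windows, and binding at them was not tested. The deposited starts of Acta2 and Smtn lie 217 and 1320 bases upstream of the RefSeq starts. The promoter table held 7 of the 10 members; of the other 5, Cspg4 had 2 CArG boxes with 1 mismatch, and Itga8, Mcam, Notch3 and Rgs5 had neither motif.

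The contractile members other than Smtn mostly differed more between libraries of a group than between groups. The exception was Acta2 in PGR_M, at 2.00 to 3.24 CPM, beside group means of 2.73 CPM in PGR_M to 5.74 CPM in PGR_F. Acta2 (chromosome 19, 34241090 to 34255590, minus strand) was at 3.31, 11.4 and 2.501 CPM in PGR_F, at 7.07, 5.18, 3.85 and 1.90 CPM in Con_F, at 2.00, 2.95 and 3.24 CPM in PGR_M, and at 7.13, 3.704 and 2.02 CPM in Con_M. The highest library, PGR_F 2, was 5.99-fold above the lowest, Con_F 4, and the groups overlapped throughout. Myh11 (chromosome 16, 14194535 to 14291372, minus strand) was at 1.97, 4.26 and 1.55 CPM in PGR_F, at 3.88, 2.31, 2.68 and 1.64 CPM in Con_F, at 2.68, 3.40 and 2.89 CPM in PGR_M, and at 3.56, 1.97 and 2.77 CPM in Con_M. Its highest library was again PGR_F 2. Tagln (chromosome 9, 45929619 to 45936058, minus strand) was the lowest member by CPM, at 0.499, 1.22 and 0.698 CPM in PGR_F, 1.20, 0.653, 0.981 and 0.793 CPM in Con_F, 0.553, 0.968 and 0.678 CPM in PGR_M, and 0.699, 0.627 and 1.37 CPM in Con_M. The gene Gm48529, on the opposite strand, covers 56.3% of Tagln and had 2.97 times its counts, so the Tagln values depend on how far counting kept the strands apart. The libraries were directional, per the labels' protocols, and the separation was not tested.

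**Figure D2:**
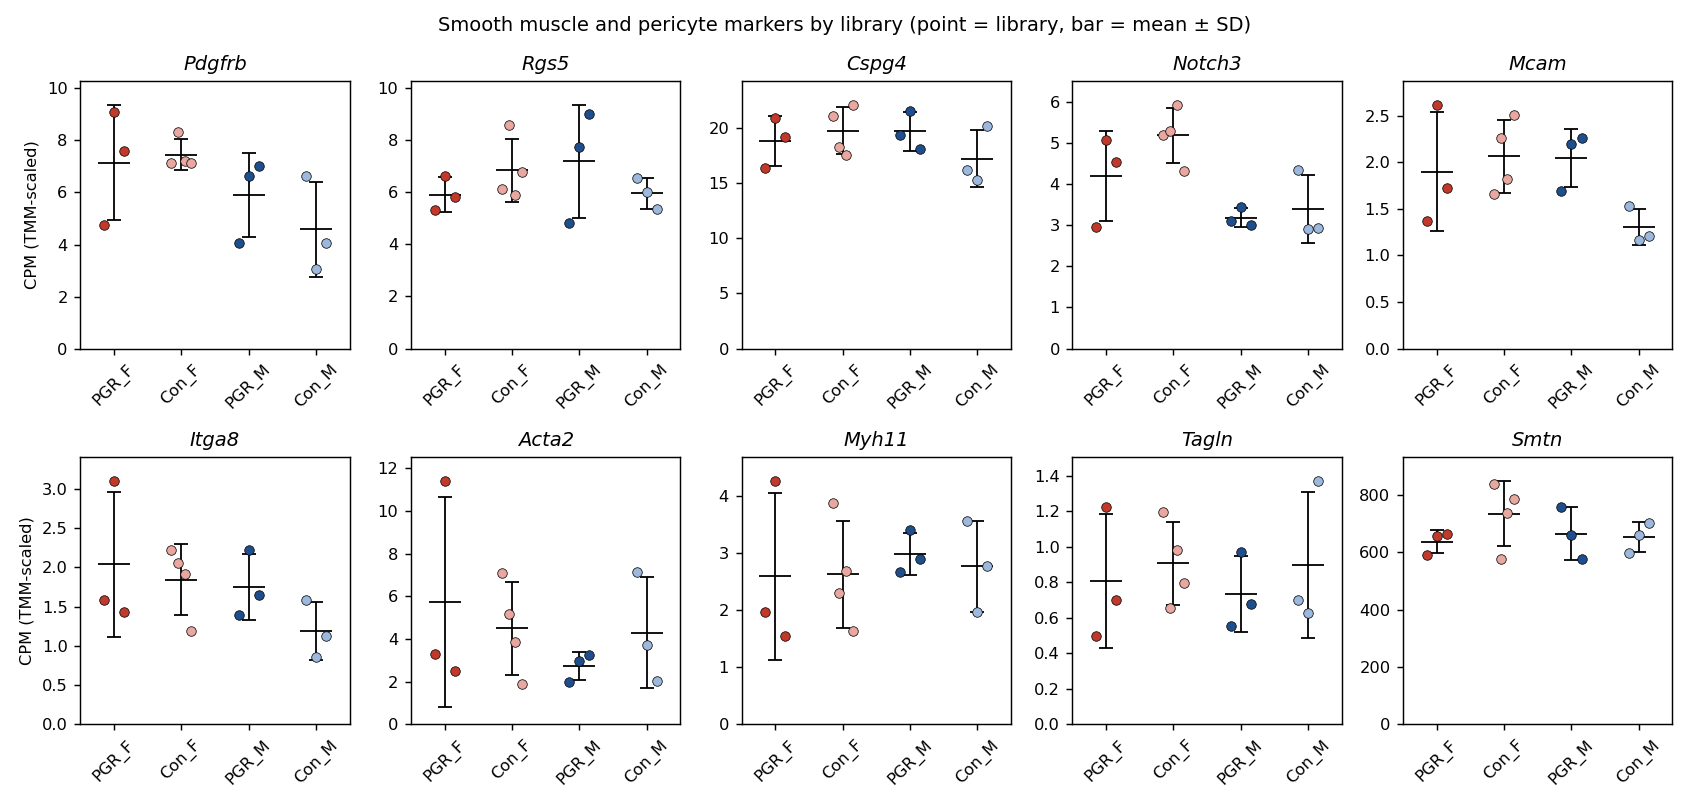
CPM of each of the 10 marker genes in the 13 libraries (points), with the group mean and SD (bars), for PGR_F, Con_F, PGR_M and Con_M from left to right. Mcam is the gene whose PGR_M libraries, at 1.69 to 2.26 CPM, all lie above the Con_M libraries, at 1.17 to 1.53 CPM, and the Acta2 point at 11.4 CPM is PGR_F 2.

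Among the pericyte members, Pdgfrb (chromosome 18, 61045150 to 61085061, plus strand), the receptor tyrosine kinase through which mural cells are recruited, was at 4.74, 9.08 and 7.61 CPM in PGR_F, at 7.12, 8.33, 7.20 and 7.14 CPM in Con_F, at 4.06, 6.63 and 7.001 CPM in PGR_M, and at 6.63, 3.08 and 4.05 CPM in Con_M. The lowest Con_F library lay above the highest Con_M library. Mcam (chromosome 9, 44134469 to 44142727, plus strand) was at 1.37, 2.61 and 1.72 CPM in PGR_F, at 1.66, 2.26, 1.82 and 2.51 CPM in Con_F, at 1.69, 2.19 and 2.26 CPM in PGR_M, and at 1.53, 1.17 and 1.21 CPM in Con_M. Both the PGR_M and the Con_F libraries lay wholly above those of Con_M. Notch3 (chromosome 17, 32120820 to 32166852, minus strand) was at 2.96, 5.08 and 4.53 CPM in PGR_F, at 5.20, 5.30, 5.91 and 4.31 CPM in Con_F, at 3.09, 3.44 and 3.00 CPM in PGR_M, and at 4.35, 2.91 and 2.93 CPM in Con_M. Its female libraries were mostly higher, and Con_M 1 reached into the Con_F range. Gm17276, on the opposite strand, covers 45.7% of Notch3 and had 35.6 times its counts, so the Notch3 values depend on strand in the same way. Across the 13 libraries, Notch3 and Gm17276 had r = -0.23, and Tagln and Gm48529 had r = 0.43.

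Rgs5 (chromosome 1, 169655501 to 169695813, plus strand) ranged from 4.80 CPM in PGR_M 1 to 8.99 CPM in PGR_M 3, so its extremes stood in 1 group. Cspg4 (chromosome 9, 56865033 to 56899870, plus strand) was the steadiest member, at 15.3 to 22.1 CPM over all libraries with a coefficient of variation of 11.5%, against 63.6% for Acta2. Itga8 (chromosome 2, 12106632 to 12301922, minus strand) was at 1.59, 3.10 and 1.43 CPM in PGR_F, at 2.22, 2.05, 1.91 and 1.19 CPM in Con_F, at 1.40, 2.22 and 1.64 CPM in PGR_M, and at 1.58, 0.855 and 1.121 CPM in Con_M. Its groups overlapped in every comparison.

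The first question was whether the receptor vector changed these genes. No member passed an adjusted p of 0.05 (edgeR quasi-likelihood test, Benjamini-Hochberg over all genes tested) in females, in males, averaged over the sexes, or in the difference between the sexes, and DESeq2 and limma-voom also called 0 members in each. Of all 16125 genes, the share called was 0% in females, 0% in males, 0.0062% averaged and 0% for the difference. These shares moved with 1 library: without Con_F 4 the fit called 20 genes in females, 1 in males, 338 averaged and 0 for the difference. In bulk RNA, fewer cells of a type and less RNA per cell cannot be told apart, and this holds for every value below.

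In females, 0 of the 10 members had an unadjusted p under 0.05, against 10.9% of all genes, and no member had groups that did not overlap, against 8.24%. The median log2 fold change of the members was -0.084, and 8 of 10 were below 0, beside a median near 0 over all genes. All 17 endothelial markers were below 0 as well (median -0.23), as were 9 of 14 fibroblast markers (median -0.17) and 10 of 13 cardiomyocyte markers (median -0.14). Macrophage markers went the other way, with 8 of 13 above 0 (median 0.14). The part of these cell types in the members' values was not tested. Notch3 had the largest fitted decrease, -0.30 (SE 0.19, adjusted p = 0.592), and Smtn stood at -0.21 (SE 0.12, adjusted p = 0.568). Acta2 stood at 0.34 (SE 0.61), a value that PGR_F 2 decides: without this library it was -0.66.

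In males, 1 of the 10 members had an unadjusted p under 0.05, against 7.48% of all genes. This was Mcam, with a log2 fold change of 0.63 (SE 0.24, unadjusted p = 0.0187, adjusted p = 0.611), or 1.54-fold higher in PGR_M. It was also the 1 member without overlap between PGR_M and Con_M, against 15.7% of all genes. Without PGR_M 3 the unadjusted p of Mcam was 0.0547, and it was also over 0.05 without Con_M 2. The 6 pericyte members had a median of 0.29 and the 4 contractile members one of -0.12. Above 0 in the same comparison were 16 of 17 endothelial markers (median 0.25), 11 of 14 fibroblast markers (median 0.13), 11 of 13 macrophage markers (median 0.33) and 5 of 6 atrial markers (median 0.80, with 4 at an unadjusted p under 0.05), and their part in the members' values was not tested. The lowest value was that of Acta2, at -0.70 (SE 0.67), and without Con_M 1 it was -0.077.

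Averaged over the sexes, 0 of 10 members had an unadjusted p under 0.05, against 14.8% of all genes, and the median was 0.028. In the difference of the vector effect, female minus male, 1 of 10 did, against 3.26% of all genes: Mcam, at -0.72 (SE 0.32, unadjusted p = 0.0403, adjusted p = 1.00). With 1 library left out, the unadjusted p of Mcam ran from 0.00422 to 0.0913 and was over 0.05 in 8 of 13 fits, the one without Con_F 4 among them. The 6 pericyte members all had a negative difference, with a median of -0.37, and the 4 contractile members a median of -0.0047. The 17 endothelial markers were all negative too (median -0.50), as were 12 of 14 fibroblast markers (median -0.28), 9 of 13 macrophage markers (median -0.36) and 5 of 6 atrial markers (median -0.85), and their part in the result was not tested. The female and the male vector effects share no library, but the difference reuses both.

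The second comparison was between females and males under each vector. Under AAV_PGR no member passed, against 0.143% of all genes, none had an unadjusted p under 0.05, against 7.25%, and none had non-overlapping groups, against 13.7%. The nearest was Notch3, at 0.41 (SE 0.20, unadjusted p = 0.0580, adjusted p = 0.720). Acta2 had the largest value, 1.08 (SE 0.67), and without PGR_F 2 it was 0.081. All 14 fibroblast markers were above 0 (median 0.52), as were 12 of 17 endothelial (median 0.25) and 11 of 13 macrophage markers (median 0.043). Below 0 were 5 of 6 atrial markers (median -0.21) and all 5 tested erythroid markers (median -0.46). The part of these cell types in the members' values under AAV_PGR was not tested.

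Under AAV_Con, no member passed either, against 0.229% of all genes, but 3 of the 10 members had an unadjusted p under 0.05, against 12.4% of all genes. All 3 were pericyte members, and none of the 4 contractile members did. Notch3 was at 0.59 (SE 0.19, unadjusted p = 0.00668, adjusted p = 0.232), Mcam at 0.63 (SE 0.23, unadjusted p = 0.0133, adjusted p = 0.279) and Pdgfrb at 0.67 (SE 0.27, unadjusted p = 0.0283, adjusted p = 0.341), each higher in Con_F. Mcam and Pdgfrb were the 2 members without overlap between Con_F and Con_M, against 11.3% of all genes. All 6 pericyte members were above 0, with a median of 0.59, and the 4 contractile members had a median of 0.054, with Acta2 at 0.042 (SE 0.61) and Myh11 at -0.083 (SE 0.35). The count of 3 was 2 without Con_M 2, and 4 without Con_M 1, Con_F 4 or PGR_F 2; Pdgfrb was at 0.46 without Con_M 2 and at 1.07 without Con_M 1. The unadjusted p of Pdgfrb was over 0.05 in 3 of 13 such fits, at 0.110 without Con_M 2, 0.0842 without Con_M 3 and 0.0627 without Con_F 2, whereas those of Notch3 and Mcam stayed under 0.05 in all 13. Another member passed that p without Con_M 3 (Cspg4) and without Con_F 2 (Smtn), so the count stayed at 3 there.

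Markers of several other cell types lay the same way in that comparison. All 17 endothelial markers were above 0 under AAV_Con (median 0.71), with 11 at an unadjusted p under 0.05, as were all 14 fibroblast markers (median 0.88), with 9 at that p, 11 of 13 macrophage markers (median 0.49) and all 6 atrial markers (median 0.60), with 2 at that p. The cardiomyocyte markers had a median of 0.0067, and all 5 tested erythroid markers were below 0 (median -0.45). The part of these cell types in the sex difference of the pericyte members was not tested. The 2 sex comparisons share no library.

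**Figure D3:**
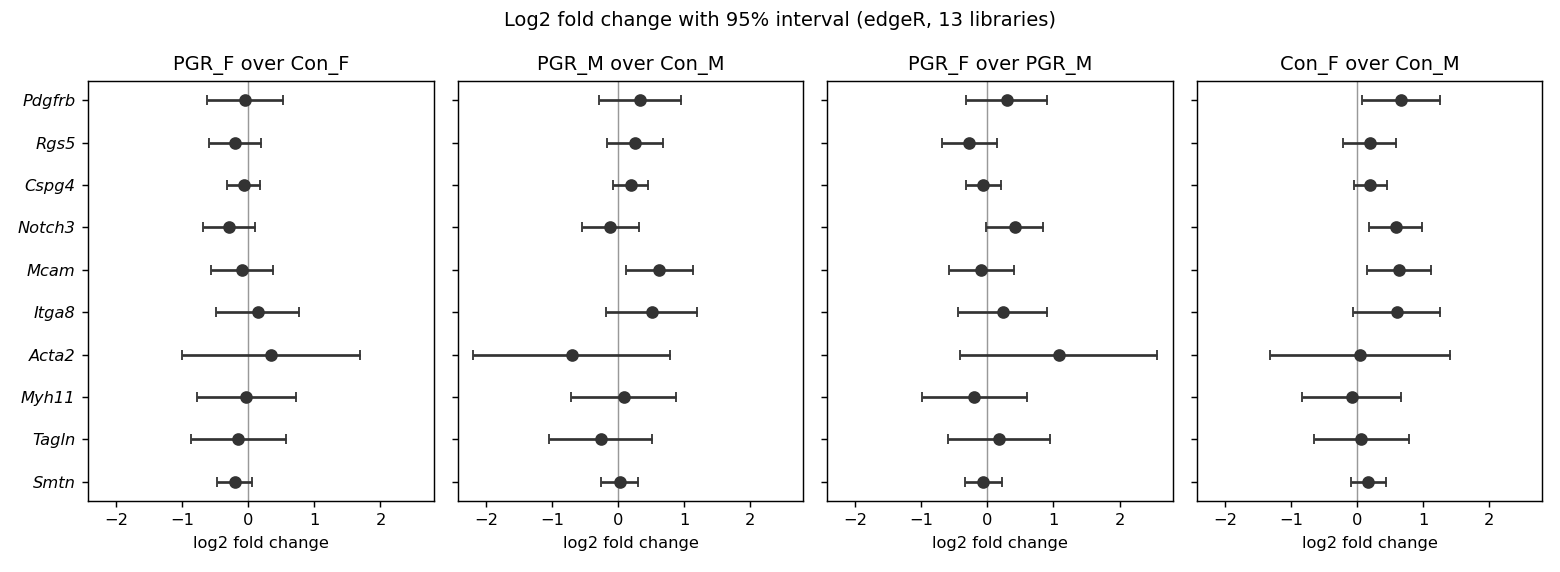
Log2 fold change of each marker gene with its 95% interval from the fit to 13 libraries, for PGR_F over Con_F, PGR_M over Con_M, PGR_F over PGR_M and Con_F over Con_M. The intervals of Pdgfrb, Notch3 and Mcam lie above 0 in Con_F over Con_M, and that of Mcam in PGR_M over Con_M, and none of these passed after adjustment.

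Within groups the members varied together unevenly. After each group mean was subtracted from log2 CPM, the 45 pairs of members had a median Pearson r of 0.38 over the 13 libraries, and 37 were positive. These are descriptions over libraries that share depth and scaling, and no test was made. Leaving out PGR_F 2 lowered the median to 0.16. The 9 pairs with Smtn had a median of -0.20, from -0.74 with Rgs5 to 0.43 with Tagln and 0.56 with Cspg4, while the 36 pairs without it had a median of 0.43 and 34 were positive. The closest pair was Itga8 and Myh11, at r = 0.93 (Spearman's rho 0.95), or 0.88 without the 2 most extreme libraries. Itga8 and Acta2 were at 0.86 (rho 0.81), or 0.74 without 2 libraries. With the other members of its own pericyte group, Itga8 ran lower, from 0.19 with Cspg4 to 0.70 with Notch3. Acta2 and Myh11, the actin and the myosin of the contractile filaments, were at 0.84 (rho 0.76), or 0.70 without 2 libraries.

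**Figure D4:**
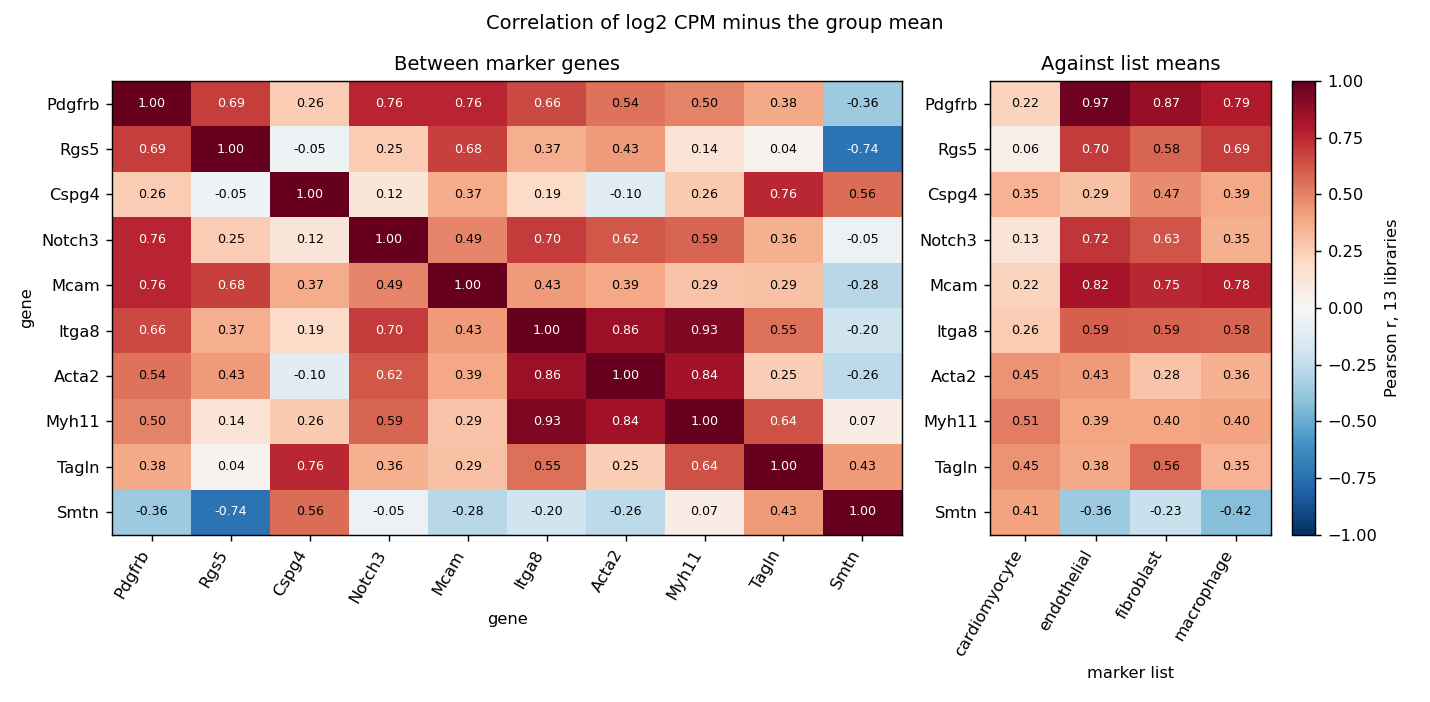
Pearson correlation over 13 libraries of log2 CPM minus the group mean, between the 10 marker genes (left) and of each gene with the mean of 4 cell type lists (right). Smtn runs from -0.74 against Rgs5 to 0.56 against Cspg4, and Pdgfrb reaches 0.97 against the endothelial list.

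Pdgfrb followed the endothelial list most closely, at r = 0.97 (rho 0.97), or 0.95 without the 2 most extreme libraries. Mcam was at 0.82, Notch3 at 0.72 and Rgs5 at 0.70, whereas Acta2 was at 0.43, Myh11 at 0.39 and Cspg4 at 0.29. Smtn was at -0.36. The covariation was not with the endothelial list alone. With the fibroblast list, Pdgfrb was at 0.87, Mcam at 0.75, Notch3 at 0.63, Rgs5 at 0.58, Cspg4 at 0.47 and Smtn at -0.23. With the macrophage list, Pdgfrb was at 0.79, Mcam at 0.78, Rgs5 at 0.69, Cspg4 at 0.39, Notch3 at 0.35 and Smtn at -0.42. With the cardiomyocyte list, Myh11 was at 0.51, Acta2 and Tagln at 0.45 each and Smtn at 0.41; without the 2 most extreme libraries these were -0.069, -0.021, 0.065 and 0.19 in the same order. PGR_F 2, the highest library for 5 of the 10 members, ranked first for the endothelial and the fibroblast sums, and Con_M 2, the lowest for 5 members, ranked last, 13 of 13, for both. How far the members' values rest on the share of vascular or other non-cardiomyocyte nuclei in a pool was not tested.

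**Figure D5:**
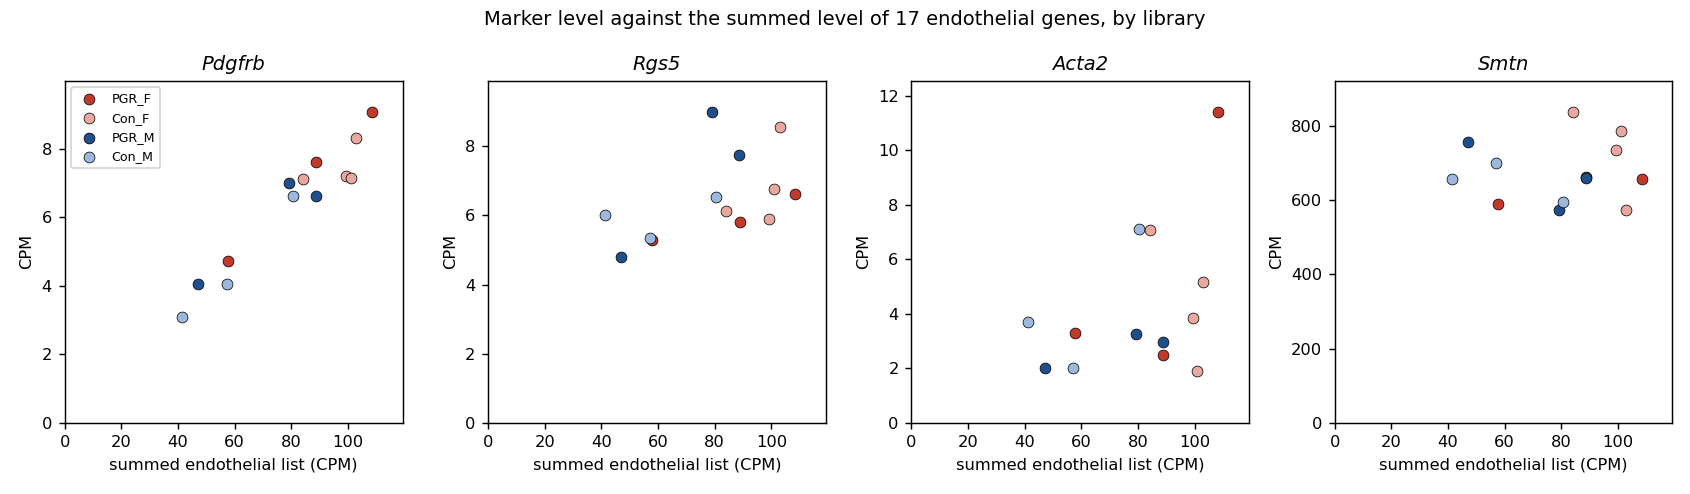
CPM of Pdgfrb, Rgs5, Acta2 and Smtn against the summed CPM of the 17 endothelial markers, 1 point a library, coloured by group. Pdgfrb climbs from 3.08 to 9.08 CPM with the endothelial sum, while Smtn, at 575 to 838 CPM, does not.

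Among the genes whose log2 CPM was most like the mean of the 6 pericyte members over the 13 libraries, out of 10809 candidates, were Adgrf5 (r = 0.96), Ptprb (0.95), Aqp1 (0.94) and Stab1 (0.94). For the 4 contractile members they were Twsg1 (0.90), Scamp3 (0.87), Card9 (0.85), Zfp84 (0.84) and Elac2 (0.84). Such values are the highest of 10809 over only 13 libraries, group means were not subtracted, and no test was made. Smtn was also taken alone, a choice made after its values were seen, and the genes most like it were Crip2 (0.92), Rrp1 (0.91), Ltbp3 (0.89), Zfp579 (0.89) and Abhd16a (0.89).

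No gene of the surrounding pathways passed an adjusted p of 0.05 in any comparison, the lowest being 0.139. In the vector effect averaged over the sexes, 7 of the 81 tested genes of the 5 lists had an unadjusted p under 0.05, or 8.64%, against 14.8% of all genes, so these counts are below the share over all genes. They included 2 of 15 tested contractile apparatus genes, Rhoa (-0.22), a small GTPase that promotes contraction, and Pde5a (-0.34), which degrades cyclic GMP; Ppp1r14a, an inhibitor of myosin phosphatase, stood at 0.34. Of 11 tested regulators, 1 did: Klf4 (0.41), a repressor of the contractile programme, with Gata6 at -0.12 and Tead1 at -0.13. None of 16 pericyte-associated genes did, and among the nearest were Gucy1a1 (0.33), a subunit of the nitric oxide receptor, and Agtr1a (0.14), an angiotensin receptor.

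Of 20 platelet-derived growth factor signalling and mural recruitment genes, 2 had an unadjusted p under 0.05 in that comparison, against 14.8% of all genes. These were Nrp1 (0.32), a coreceptor, and the ligand Pdgfa (-0.21), and the sphingosine phosphate receptor S1pr1 stood next, at 0.33. Of 19 Notch pathway genes, 2 did: the target Hey2 (0.22) and the fringe enzyme Rfng (-0.24), with the coactivator Maml1 at -0.11. In the difference between the sexes, 1 of the 81 genes had an unadjusted p under 0.05, or 1.23%, against 3.26% of all genes: the ligand Pdgfb (-0.56, SE 0.26). The 3 nearest of each list otherwise included Dll1 (-0.75), Notch4 (-0.54) and Hey2 (0.33) of the Notch pathway, Smad2 (0.22) and Tgfbr1 (0.17) of recruitment, and Rock1 (0.23), Rhoa (0.18) and Rock2 (0.22) of contraction. Tbx18 (0.23), Mef2c (0.15) and Ebf1 (-0.28) of the regulators and Gucy1b1 (-0.58), Colec11 (-0.69) and Agtr1a (0.20) of the pericyte list completed them. At that p stood 5 genes (6.17%) in females and 2 (2.47%) in males, against 10.9% and 7.48% of all genes. The 2 sex comparisons lay above the share over all genes. In Con_F over Con_M 20 of the 81 genes had that p, or 24.7%, against 12.4%, and in PGR_F over PGR_M 9, or 11.1%, against 7.25%. The part of other cell types in these counts was not tested.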

How the data were processed

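Per the labels' protocols, Pcm1-sorted ventricular nuclei gave RNA that was depleted of ribosomal RNA and made into directional libraries. The authors deposited raw counts per gene, 1 column a library, with no normalization; GRCm38 and mm10 as builds, and featureCounts 1.5.0 and STAR 2.5.3a as tools, come from the submitters' processing notes, which give no roles here. In all 55536 genes the deposited length is the end minus the start plus 1, so introns are counted.

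Counts were analysed in R 4.3.3 with edgeR 4.0.16: filterByExpr, TMM factors and a robust quasi-likelihood fit of 4 group means to 13 libraries, with 6 contrasts and Benjamini-Hochberg adjustment over 16125 genes. Standard errors were taken as the log2 fold change over the root of F. For correlations the log2 CPM had 2 as prior count. DESeq2 1.42.0 and limma 3.58.1 were alternatives. The fit was tested on simulated data.

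Members and lists were chosen with earlier results of these data known. Named genes were the members, the 3 genes of smallest p per pathway list in the averaged and difference comparisons, the 5 genes most like the members and the 3 highest genes of each cell type list; some genes that this rule names are not reported here. Promoter windows are from RefSeq (GRCm38.p6). No pair of libraries in a group agreed within sampling noise.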

Additional observations from a re-analysis of the deposited data

Results flagged for a closer look

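In the 4 Con_F libraries, 17 values were compared with Dixon's critical value for 4 libraries, which chance passes in about 1 of 20 groups, and 2 passed. Pdgfrb was highest in Con_F 2, at 8.33 CPM, with a gap to the next library that was 0.934 of the range; the other 3 libraries lay between 7.12 and 7.20 CPM. The Y-chromosome genes were highest in Con_F 4, at 1.01% of the male mean, with a gap of 0.915 of the range.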

How the results depend on the processing

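No member was called under any of the settings tried, leave-one-out fits included, and the smallest adjusted p of a member was 0.0702, for Con_F over Con_M without Con_M 1. With leave-one-out fits, 55 of 780 member values changed sign, in 25 results, and 9 of 520 did under other settings; none was past the threshold. Where an arm is left with few libraries, the fit pools the spread of all groups. A fit to the groups compared alone is no alternative for the averaged effect and the difference, which use all 4. Low counts limit Tagln, Mcam and Itga8.

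The replicate numbers were not taken as pairs, since in no comparison did every same-numbered pair have deviations that correlated above 0.1. They ran from -0.25 to 0.05 between the vectors and from -0.050 to 0.25 between the sexes, highest for Con_F 1 and Con_M 1. In 4 of 11 pairs the best match of a library was the one with its own number. These were PGR_F 4 with Con_F 4, PGR_F 1 with PGR_M 1, PGR_F 2 with PGR_M 2, and Con_F 1 with Con_M 1. The pairs of PGR_F with PGR_M were at 0.089 (number 1) and 0.093 (number 2). The replicate block called 35 genes for PGR_F over PGR_M, against 23 without it. With the block, Myh11 was 0.028 in PGR_F over Con_F, 0.030 in PGR_F over PGR_M and 0.098 in Con_F over Con_M.

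Counts of all genes called moved with the test. Without the filter they were 25 in females, 12 in males, 146 averaged, 1 for the difference, 51 for PGR_F over PGR_M and 131 for Con_F over Con_M. DESeq2 called 81 in females, 29 in males, 334 averaged, 1 for the difference, 80 for PGR_F over PGR_M and 224 for Con_F over Con_M. With only the groups compared they were 1 in males, 56 for PGR_F over PGR_M and 17 for Con_F over Con_M. For the averaged effect library totals gave 5 and a prior that is not robust 21. Leaving out 1 library gave 0 to 20 in females (20 without Con_F 4), 0 to 3 in males (3 without PGR_M 2), 1 to 338 averaged (338 without Con_F 4, 34 without PGR_F 4), 10 to 44 for PGR_F over PGR_M (44 without Con_F 4) and 14 to 99 for Con_F over Con_M (92 without Con_F 4, 99 without Con_M 1). Without length, 2 of 10 members kept their rank of level. The median correlation of member pairs was 0.16 to 0.49.

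Under library totals, PGR_F over Con_F was 0.0094 for Pdgfrb and 0.031 for Myh11. Under limma-voom, Rgs5 was -0.0030 and Myh11 -0.043 averaged, Tagln -0.020 in the difference and Acta2 -0.033 in Con_F over Con_M. The cause of these changes was not tested. Values that changed sign when 1 library was left out had these ranges. In PGR_F over Con_F, Pdgfrb was -0.25 to 0.16, Cspg4 -0.15 to 0.013, Mcam -0.39 to 0.064, Itga8 -0.30 to 0.35, Acta2 -0.66 to 0.70, Myh11 -0.61 to 0.24 and Tagln -0.58 to 0.050. In PGR_M over Con_M, Notch3 was -0.21 to 0.13, Myh11 -0.093 to 0.34, Tagln -0.50 to 0.13 and Smtn -0.077 to 0.13. Averaged, Rgs5 was -0.070 to 0.14, Acta2 -0.67 to 0.13 and Myh11 -0.26 to 0.17. In the difference, Myh11 was -0.70 to 0.15 and Tagln -0.32 to 0.34. In PGR_F over PGR_M, Cspg4 was -0.14 to 0.017, Mcam -0.39 to 0.068, Itga8 -0.22 to 0.44, Myh11 -0.78 to 0.072, Tagln -0.25 to 0.41 and Smtn -0.17 to 0.042. In Con_F over Con_M, Acta2 was -0.28 to 0.66, Myh11 -0.35 to 0.17 and Tagln -0.11 to 0.45.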

Other observations

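Several genes often used beside these markers were at high levels in the sorted nuclei. Myocd, the coactivator of serum response factor in cardiac and smooth muscle, averaged 1128 CPM over the 13 libraries, Nrp1 709 CPM, Angpt1, a vessel-stabilising ligand, 422 CPM, and Abcc9, a subunit of potassium channels, 285 CPM. So were Agtr1a (149 CPM) and Ednra (107 CPM) of the pericyte list, and Prkg1 (1221 CPM) and Synpo2 (886 CPM) of the contractile list. Other genes of these lists were low: Kcnj8 was at 0.804 CPM, Vtn at 0.401 CPM and Cnn1 at 0.0789 CPM. Cnn1, Actg2 and Kcnmb1 did not pass the filter. These CPM are not scaled by length, and per kb of gene interval the gap was smaller. Abcc9 was at 2.49 and Angpt1 at 1.67 CPM per kb. Vtn, at 0.124, and Kcnj8, at 0.119 CPM per kb, lay inside the range of the 9 members other than Smtn.

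In Con_F over Con_M, 13 of 16 tested pericyte-associated genes were above 0, with a median of 0.46, and 4 had an unadjusted p under 0.05, against 12.4% of all genes. The endothelial markers had a median of 0.71 and the fibroblast markers one of 0.88 in that comparison, and their part in these values was not tested. Anpep was at 1.09 (SE 0.27, adjusted p = 0.139), Gucy1a1 at 0.96 (SE 0.25, adjusted p = 0.160), Pdgfb at 0.69 (SE 0.18, adjusted p = 0.146) and Notch1 at 0.85 (SE 0.23, adjusted p = 0.181), by edgeR. These genes were chosen after their values were seen, and none passed.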
